A study of Mus musculus with 2 samples.

Results

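The cells described here are 149 tumour cells whose transcripts were richest in DNA replication genes, called S-phase cells below, among 991 non-mitotic cells of 1457 tumour cells and of 3668 cells in the tumour and lymph node libraries together. They were chosen by measured values: each cell's UMIs (unique molecular identifiers, 1 per captured transcript) of Mcm2, Mcm3, Mcm5, Mcm6, Pcna, Ung, Tipin, Hells and Dut were summed and divided by all its UMIs, and the top 15% were taken. They are set against low-score cells, the bottom 50% by the same score, which are 496 cells, and 346 cells lie between. Another 466 tumour cells had been dropped first as mitotic, because Birc5, Ccnb1, Ccnb2, Ube2c, Cenpa, Cenpe and Nusap1 made up at least 0.05% of their UMIs. The study sorted cells from Foxp3Cre-YFP mice, a C57BL/6 strain aged 5 to 8 weeks in which the Foxp3 locus drives Cre recombinase and a yellow fluorescent protein, for droplet sequencing from the 3′ end. One library came from B16 melanoma, a transplanted tumour line, at day 14, and the other from lymph node of unchallenged mice. All cells of both libraries share the Foxp3Cre-YFP genotype. Neither the sort gate nor how many mice went into a library is given in the labels. Each tissue has 1 library and thus no replicate, so no test was made, and the ratios below carry 95% intervals that cover counting error only and treat each UMI as independent.

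Regulatory T cells (Treg cells) hold back other T cells, and those in tumours are known to divide often. A cell that enters S phase copies its DNA once: the MCM helicase is loaded on origins before S phase, is fired by kinases and joined by Cdc45 and GINS, and then opens the DNA ahead of the polymerases, which the sliding clamp PCNA holds on the template. The E2F transcription factors, freed from retinoblastoma proteins when cyclin-dependent kinases act, switch on genes for this machinery and for nucleotide synthesis. Histones package the new DNA.

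E2F factors bind a short word in promoters, so the promoters of Mcm3, Mcm5, Mcm6, Hells and Cdc6, which hold such a word, are shown after the search, beside that of Ung, the score gene with the largest ratio between S-phase and low-score cells. Each window runs from 250 bases before to 50 bases after the start site, 5′ to 3′, taken from RefSeq on GRCm38.p6. The Mcm3 window lies at chr1:20820263-20820562 on the minus strand, that of Mcm5 at chr8:75109259-75109558 on the plus strand, and that of Mcm6 at chr1:128359656-128359955 on the minus strand. That of Hells lies at chr19:38930740-38931039 on the plus strand, that of Cdc6 at chr11:98907901-98908200 on the plus strand, and that of Ung at chr5:114130185-114130484 on the plus strand. Capitals mark every match to TTTGGCGC, TTTGCCGC, TTTCGCGC or TTTCCCGC on either strand, and matches may overlap.
Mcm3: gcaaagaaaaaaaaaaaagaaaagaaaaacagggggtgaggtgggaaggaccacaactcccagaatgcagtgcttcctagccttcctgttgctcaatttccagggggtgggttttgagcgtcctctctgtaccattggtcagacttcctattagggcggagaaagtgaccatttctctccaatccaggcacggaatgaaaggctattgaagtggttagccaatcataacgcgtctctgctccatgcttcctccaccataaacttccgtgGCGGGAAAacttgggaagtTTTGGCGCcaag
Mcm5: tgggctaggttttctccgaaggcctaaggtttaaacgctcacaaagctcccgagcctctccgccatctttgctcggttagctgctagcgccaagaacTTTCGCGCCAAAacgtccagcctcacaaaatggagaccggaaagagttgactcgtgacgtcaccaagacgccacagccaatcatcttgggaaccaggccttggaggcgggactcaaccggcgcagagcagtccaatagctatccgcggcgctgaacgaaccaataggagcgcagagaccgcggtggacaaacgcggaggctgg
Mcm6: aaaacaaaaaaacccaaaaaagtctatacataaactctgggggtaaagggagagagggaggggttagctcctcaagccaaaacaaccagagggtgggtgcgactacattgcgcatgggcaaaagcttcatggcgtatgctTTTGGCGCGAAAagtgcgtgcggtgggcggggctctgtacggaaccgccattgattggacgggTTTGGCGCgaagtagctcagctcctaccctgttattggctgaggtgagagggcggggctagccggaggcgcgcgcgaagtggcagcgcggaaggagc
Hells: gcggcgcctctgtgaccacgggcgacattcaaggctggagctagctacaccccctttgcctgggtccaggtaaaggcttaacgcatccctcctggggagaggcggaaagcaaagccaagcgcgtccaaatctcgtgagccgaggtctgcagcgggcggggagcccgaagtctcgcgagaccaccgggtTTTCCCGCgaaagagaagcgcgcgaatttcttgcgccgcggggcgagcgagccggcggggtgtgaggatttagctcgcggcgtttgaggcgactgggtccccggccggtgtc
Cdc6: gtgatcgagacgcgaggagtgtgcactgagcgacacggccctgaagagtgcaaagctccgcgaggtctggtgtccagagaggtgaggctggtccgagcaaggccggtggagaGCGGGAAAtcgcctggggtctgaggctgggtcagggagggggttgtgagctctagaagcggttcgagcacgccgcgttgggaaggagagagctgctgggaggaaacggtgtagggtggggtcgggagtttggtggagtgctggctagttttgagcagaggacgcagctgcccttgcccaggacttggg
Ung: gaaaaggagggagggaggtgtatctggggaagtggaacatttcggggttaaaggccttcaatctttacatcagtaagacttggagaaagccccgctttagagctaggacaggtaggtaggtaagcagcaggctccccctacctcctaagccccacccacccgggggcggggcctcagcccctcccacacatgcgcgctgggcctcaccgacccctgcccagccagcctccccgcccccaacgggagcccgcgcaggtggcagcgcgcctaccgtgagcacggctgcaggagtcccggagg
Mcm3 and Mcm5 held 2 matches each, overlapping in Mcm5, Mcm6 held 3, Hells and Cdc6 held 1 each, and the Ung window held none. Of the 9 score genes, 8 were matched to a window and 4 of these windows (50%) held a match. Among 116 windows of 96 replication genes outside the score, 28 (24.1%) held one, against 744 of 32851 windows of all genes (2.26%) and 302 of 7022 windows (4.30%) of the genes measured here with at least 50 UMIs. By list, the windows with a match were 7 of 18 for origin licensing and firing, 9 of 29 for the fork, 8 of 21 for G1/S regulators and 1 of 24 for nucleotide synthesis. The word TTTGAA, the core of the element that mitotic promoters are known for, was in 23 of 28 windows (82.1%) of G2 and mitosis genes outside the rule. It was in 3 of 7 windows of the mitotic genes of the rule and 19 of 116 (16.4%) of the replication windows, among them 8 of 25 for chromatin replication. The background was 17.9% of all windows and 836 of 7022 windows (11.9%) of the genes measured here with at least 50 UMIs. A match describes letters in the window, and binding was not measured.

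The class is a range of the score and not a cell type, and no gap separated it from the cells below. The lowest member stood at 0.0826% of its UMIs and the highest cell outside at 0.0788%. The fifth member from the cut stood at 0.0872% and the fifth cell outside at 0.0771%. Within 20% of the cut lay 18 cells inside and 32 outside. The median score was 0.202% in S-phase cells and 0.0118% in low-score cells. In UMIs this is a median of 29 score UMIs (4 to 96) per S-phase cell against 1 (0 to 5) per low-score cell, of which 196 had none. Of the 149 S-phase cells 139 (93.3%) held at least 5 of the 9 score genes and 56 held all 9, and no low-score cell held more than 4, which the choice of cells by these genes and their depth largely set. Of the 466 cells dropped as mitotic, 224 (48.1%) also reached the cut, so the 149 cells are not all tumour cells with replication transcripts.

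S-phase cells also gave more UMIs than low-score cells. They held a median of 13726 UMIs and 3149 genes, against 6344.5 UMIs and 2050 genes in low-score cells, a ratio of 2.16 for UMIs. Of the 149, 136 lay above the low-score median, and 38 of the 50 deepest non-mitotic cells were S-phase cells. Doublets were not called and were kept. Over the 991 cells, which share 1 library, Spearman's rho between UMIs and score was 0.30, and over the 149 it was 0.17. Mitochondrial transcripts made up a median of 1.59% of UMIs in S-phase cells against 1.23% in low-score cells, and Malat1, a nuclear noncoding RNA, 0.587% against 1.97%. Cells grow before they divide, and several lists below are given on 2 scales: CPM (counts scaled to a fixed total), which is a share of the cell's transcripts, and UMIs per cell. How much of the depth difference is cell size and how much is capture cannot be told apart.

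**Figure D1:**
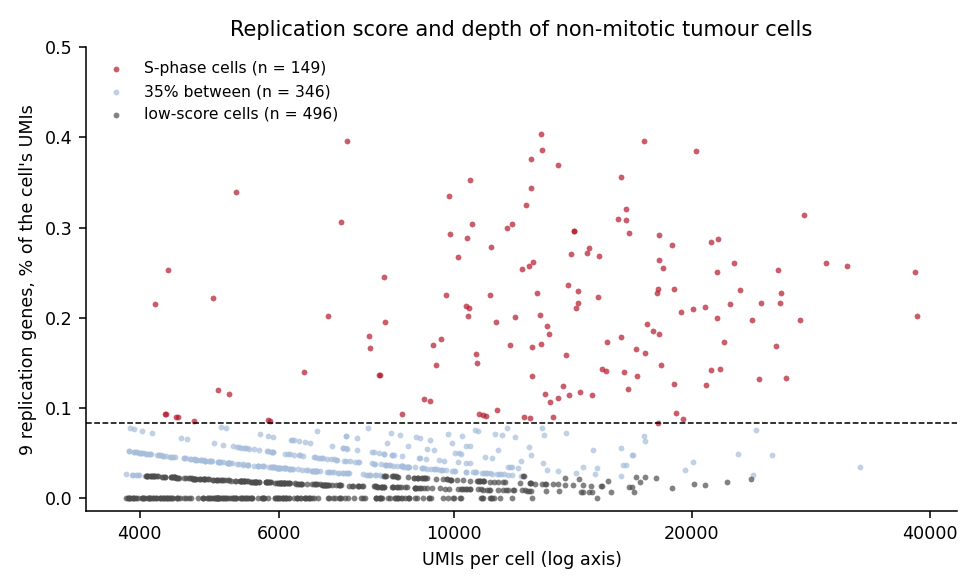
Each point is 1 of the 991 non-mitotic tumour cells, by its UMIs (x, log axis) and by the 9 replication genes as a percentage of those UMIs (y), with the 149 S-phase cells in red, the 346 cells between in blue and the 496 low-score cells in grey. The dashed line is the cut at 0.0826%, and the red points lie further right, at a median of 13726 against 6344.5 UMIs.

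Markers of other cell types were low in S-phase cells. Over 12 such lists the summed level ran from 0 to 35.1 CPM in S-phase cells and from 0 to 77.8 CPM in low-score cells, highest for conventional CD4 T cell genes in both. Cd8a and the defining macrophage genes Csf1r and Adgre1 had no UMI in either class, and none of 5 fibroblast markers had one. The 8 macrophage markers summed to 14.6 CPM in S-phase cells and 14.0 CPM in low-score cells, the 6 B16 melanoma markers to 28.7 and 38.3 CPM, and the 6 B cell markers to 12.8 and 17.0 CPM. The macrophage and melanoma sums were kept low in part by the filters. Cells with at least 3 UMIs of C1qa, C1qb and Lyz2 or at least 20 of Pmel, Dct and Mlana had been removed. Tyrp1, a pigment cell enzyme that T cells lack, stood at 11.9 CPM in S-phase cells and 11.9 CPM in low-score cells, against 376 CPM in 188818 tumour barcodes of 1 to 100 UMIs, which hold free RNA. The 9 score genes together stood at 1235 CPM in that free RNA, at 2112 CPM in S-phase cells and at 107 CPM in low-score cells. Of the Treg markers, Ikzf2 (Helios) had a UMI in all 149 S-phase cells and in 473 of 496 low-score cells (95.4%). Foxp3, the lineage factor, had one in 23 S-phase cells (15.4%) and in 80 low-score cells (16.1%), so its transcript was sparse in both. The free RNA held 481 CPM of Ikzf2 and 2.56 CPM of Foxp3. The markers given for S phase are all score genes, so the choice of cells made them high. Genes outside the score and each score gene left out in turn are described below. DNA content was not measured, so cells in S phase cannot be told apart from cells about to enter it.

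Each score gene stayed high when it had no part in choosing the cells. For this the score was rebuilt from the other 8 genes and both classes were drawn again, which kept 141 to 147 of the 149 cells. Ung, which removes uracil from DNA, had 90.1 CPM in S-phase cells chosen without it against 1.62 CPM in low-score cells, a ratio of 55.6 (25.1 to 153). The helicase subunits Mcm2, Mcm3 and Mcm5 had ratios of 16.5 (11.7 to 23.9), 18.8 (13.6 to 26.5) and 15.4 (11.6 to 20.8). Hells, a chromatin remodeller of the SNF2 family, had a ratio of 18.6 (12.2 to 29.5). The ratios were lower for Tipin, a fork protection factor, at 9.02, for Dut, which clears dUTP, at 7.92, for the clamp Pcna at 7.76 and for Mcm6 at 5.04 (4.28 to 5.96). All 9 genes shared the direction, and the low end of each interval was above 4. The lesser ratios of Mcm6 and Dut go with more UMIs in low-score cells, where they stood at 51.6 and 59.97 CPM when left out. These cells share the library and the denominator, so this is no independent sample.

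**Figure D2:**
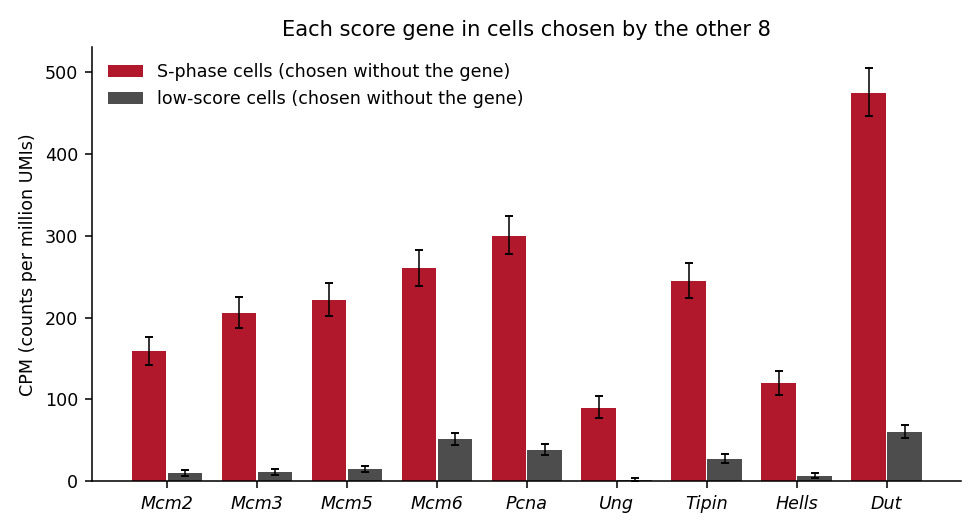
Bars give the CPM of each of the 9 score genes in S-phase cells (red) and low-score cells (grey) when the classes were chosen by the other 8 genes, with exact Poisson 95% intervals as error bars. All 9 red bars stand above their grey partners, from a ratio of 5.04 for Mcm6 to 55.6 for Ung.

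The level of the score genes in single cells is given as a description, since the choice of cells set it. Dut had a median of 6 UMIs per S-phase cell (0 to 33) against 0 (0 to 2) per low-score cell, and Pcna a median of 4 (0 to 17) against 0 (0 to 2). Mcm6 had a UMI in 143 of the 149 cells. Ung had a UMI in 86 S-phase cells (57.7%), in 1 low-score cell (0.202%) and in 63 of 466 mitotic cells (13.5%). With every cell thinned to 3834 UMIs, the tumour threshold for calling a cell, Ung was found in 26.2% of S-phase cells (19.3 to 34.0) and in 3.86% of mitotic cells. As a level, Ung had 91.6 CPM in S-phase cells and 19.2 CPM in the mitotic cells.

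Across all genes the split was wide in both directions. Of 7086 genes with at least 50 UMIs over both classes, 1360 (19.2%) were at least 1.5-fold higher in S-phase cells by CPM ratio and 1342 (18.9%) at least 1.5-fold lower. For 660 of them (9.31%) the whole counting interval lay above 1.5-fold, and for 368 (5.19%) below. The lists below use genes with at least 20 UMIs, where the background is 1847 of 8970 genes higher (20.6%), 1825 lower (20.3%) and a median log2 ratio of -0.04. In UMIs per cell the background is 6269 genes higher (69.9%), 187 lower (2.08%) and a median log2 ratio of 0.94. Called means past 1.5-fold, with no test. The cells were chosen from the same counts, and nothing beyond the lists' own counts is read from these shares.

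**Figure D3:**
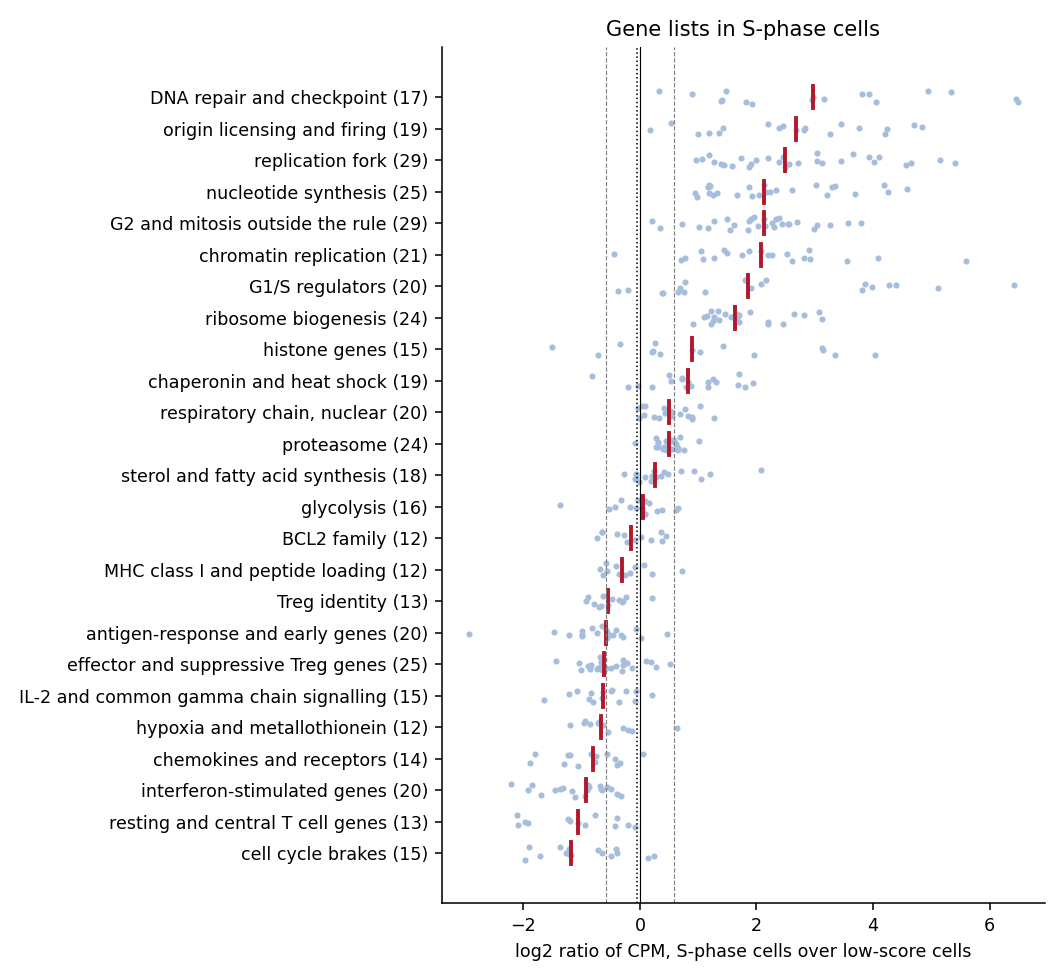
Each point is a listed gene with at least 20 UMIs, by the log2 ratio of CPM in S-phase cells over low-score cells, with the number of such genes beside each list name. Red bars are list medians, dashed lines mark 1.5-fold and the dotted line is the median of all 8970 genes at -0.04. Medians run from 2.97 for DNA repair and checkpoint to -1.19 for cell cycle brakes.

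Origin licensing and firing genes outside the score were higher in S-phase cells for 17 of 19 measured genes, at a median log2 CPM ratio of 2.67. Cdc6, which loads the MCM helicase on origins, had 38.8 CPM in S-phase cells and 1.35 CPM in low-score cells (85 against 5 UMIs), a ratio of 28.7 (11.8 to 90.7). Mcm7, a helicase subunit that was not in the score, had 173 against 9.18 CPM, a ratio of 18.9 (13.3 to 27.7). The firing factors Gins2 and Cdc45 had ratios of 18.4 (11.6 to 30.7) and 13.5 (6.98 to 29.2). The last of the 6 helicase subunits, Mcm4, named after its value was seen, had a ratio of 6.37. The genes below 1.5-fold, picked out after their values were seen, were Orc5, an origin recognition subunit, at a ratio of 1.13 and Dbf4, the activator of the Cdc7 kinase, at 1.44. With cells thinned to equal depth 11 of these genes both met the UMI minimum and reached 1.5-fold. Whether the others fell short of the minimum or of 1.5-fold was not counted.

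All 29 genes of the replication fork were higher, with a median log2 CPM ratio of 2.49 and ratios from 1.95 to 42.2. Prim1, the catalytic primase subunit, had 92.6 CPM in S-phase cells and 5.40 CPM in low-score cells, a ratio of 17.1 (10.8 to 28.7). Clspn and Timeless, which keep the fork stable and carry the checkpoint signal, had ratios of 25.05 (11.1 to 70.1) and 23.6 (11.1 to 60.3). Dscc1, part of an alternative clamp loader, had 50 UMIs against 2, and its ratio of 42.2 (11.1 to 358) has a wide interval.

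Nucleotide synthesis was higher for all 25 measured genes, at a median log2 CPM ratio of 2.14. Rrm2, the small subunit of ribonucleotide reductase that makes deoxynucleotides in S phase, had 143 CPM in S-phase cells and 5.94 CPM in low-score cells, a ratio of 24.1 (15.6 to 39.0). Its UMIs varied among S-phase cells, with a median of 1 and a range of 0 to 25, and 76 of 149 cells (51.0%) held one. The folate enzymes that feed thymidylate and purine synthesis were next among the named genes: Mthfd1 at 19.1 (8.35 to 54.0) and Shmt1 at 18.3 (8.48 to 47.1) as CPM ratios.

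Of 21 genes that rebuild chromatin behind the fork, 20 were higher, with a median log2 CPM ratio of 2.08. Chaf1a, the large subunit of the CAF-1 histone chaperone, had 65.7 CPM in S-phase cells and 1.35 CPM in low-score cells, a ratio of 48.6 (20.4 to 152). Uhrf1, which brings the methyltransferase Dnmt1 to new DNA, had a ratio of 16.9 (10.6 to 28.2). The histone chaperones Asf1b and Nasp had ratios of 11.8 (8.05 to 17.7) and 7.08 (5.60 to 9.04). Tonsl, named after its value was seen, was the exception at a ratio of 0.73.

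DNA repair and checkpoint genes were higher for 16 of the 17 with at least 20 UMIs, of 23 listed, at a median log2 CPM ratio of 2.97. Exo1, an exonuclease of mismatch and break repair, had 55 UMIs in S-phase cells and 0 in low-score cells, which is at least 31.0-fold higher against a floor of 3 counts over the low-score cells. Chek1, the kinase of the replication checkpoint, and Rad54l, a recombination motor, had 52 and 53 UMIs in S-phase cells and 1 each in low-score cells, with CPM ratios of 87.8 and 89.5 whose intervals begin at 15.1 and 15.4. Psmc3ip, a cofactor of homologous recombination and in none of the lists, was among the 12 genes that led the higher side by the interval bound nearest to 1, with a ratio of 30.0 (11.2 to 113), and the other 11 were list genes. These 4 genes were nearly absent from low-score cells, with at most 4 UMIs each, and thinning left 6 genes of the list past 1.5-fold.

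The regulators of the G1/S step were higher for 16 of 20 measured genes, at a median log2 CPM ratio of 1.85. E2f1 had 55.6 CPM in S-phase cells and 3.51 CPM in low-score cells, a ratio of 15.8 (8.93 to 30.6). The E cyclins, which activate Cdk2 at the entry to S phase, had 41.5 against 2.97 CPM for Ccne1 and 18.7 against 0.540 CPM for Ccne2. Mybl2, an E2F target and activator of later genes, had 51 UMIs against 1. Myc, a transcription factor that drives growth, had 57.4 CPM against 15.4 CPM, a ratio of 3.73 (2.71 to 5.20). The D cyclins differed from the E cyclins: Ccnd2 stood at 471 against 545 CPM (ratio 0.87) and Ccnd3 at 160 against 209 CPM (ratio 0.77). With Rb1 at 1.30 and Cdk6 at 1.31 they were the 4 genes below 1.5-fold, and all 4 were named after their values were seen.

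Of 15 measured histone genes, 8 were higher and 2 lower, at a median log2 CPM ratio of 0.89. Hist1h2ap, a replication-dependent H2A gene, had 218 CPM in S-phase cells and 13.2 CPM in low-score cells, a ratio of 16.5 (12.3 to 22.6), and 1005 CPM in mitotic cells. It sat in few cells, with a UMI in 56 of 149 S-phase cells (37.6%) and up to 42 UMIs in 1 cell. Hist1h3c, Hist1h1b and Hist1h2ae had CPM ratios of 10.1, 8.83 and 8.75. The lower genes, named after their values were seen, were Hist3h2a at 0.35 and the linker histone Hist1h1c at 0.61. Clustered histone genes are near-identical copies and their transcripts mostly lack a poly(A) tail, so 3′ counts catch part of them and may divide reads between copies.

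G2 and mitosis genes outside the rule were higher for 27 of 29 measured genes although the cells with a mitotic load had been dropped, at a median log2 CPM ratio of 2.13. Top2a, the topoisomerase that untangles sister chromatids, had 135 CPM in S-phase cells, 26.7 CPM in low-score cells and 359 CPM in mitotic cells. Mki67, the proliferation antigen, had 57.0, 11.6 and 216 CPM in the same order of classes. Kinetochore subunits Spc25 and Spc24 had CPM ratios of 13.8 (5.48 to 44.9) and 9.57 (5.76 to 16.8). Of the mitotic genes used to drop cells, which the rule kept low in both classes, 5 of 7 were past 1.5-fold, while Cenpa at 0.80 and Ube2c at 1.01 were not. That count was 1 at a mitotic limit of 0.02% of UMIs, 2 after thinning and 1 with at least 100 UMIs. With that lower limit, which left 94 S-phase cells, 16 genes of the list were past 1.5-fold and Ccnb2, a mitotic cyclin of the rule, changed sign to a log2 ratio of -0.42.

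Levels within the class were compared by score, with counts pooled over cells, which does not show differences between single cells. When divided by score into the lowest 50, the middle 49 and the top 50 cells, with median depths of 12797, 14368 and 14118 UMIs, genes differed in where they stood high. Ccne1 had 37.7, 34.6 and 51.5 CPM from low to high, against 2.97 CPM in low-score cells. The other E cyclin, Ccne2, had 7.85, 16.7 and 29.6 CPM against 0.540 CPM, and E2f1 28.3, 47.4 and 86.3 CPM against 3.51 CPM. Of the G2 and mitosis list, Mki67 had 10.99, 62.8 and 88.9 CPM against 11.6 CPM in low-score cells, while Top2a had 59.7, 146 and 187 CPM against 26.7 CPM. Rrm2 had 28.3, 155 and 225 CPM against 5.94 CPM, and Hist1h2ap 28.3, 381 and 210 CPM against 13.2 CPM. Mybl2, of the G1/S list, had 1.57, 28.2 and 36.1 CPM against 0.270 CPM. In the lowest 50, Mki67 and Mybl2 had intervals that included the low-score level.

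Single cells were then compared at equal depth, with gene groups chosen after the values were seen. Among the 149 S-phase cells, each thinned to 3834 UMIs, 76 (51.0%, 42.7 to 59.3) held a UMI of the early genes Ccne1, Ccne2, Cdc6, E2f1, Exo1 or Chek1. A UMI of the late genes Hist1h2ap, Hist1h1b, Hist1h2ae, Top2a, Mki67 or Cdk1 was held by 75 (50.3%, 42.0 to 58.6). Early and late are only names of these groups and not measured stages, since the late group holds replication-dependent histone genes such as Hist1h2ap. In 46 cells both were found, in 30 the early alone, in 29 the late alone and in 44 neither. At this depth a transcript that is present can be missed, so these counts do not separate early from late cells. Mitotic cells held early genes in 21.7% and late genes in 78.5%, and low-score cells in 3.63% and 21.2%. Over the 149 cells the early and the late CPM had a Spearman rho of 0.52, in cells that share a library and a denominator each. Both rose with the score, at a rho of 0.52 for the early and 0.50 for the late genes.

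**Figure D4:**
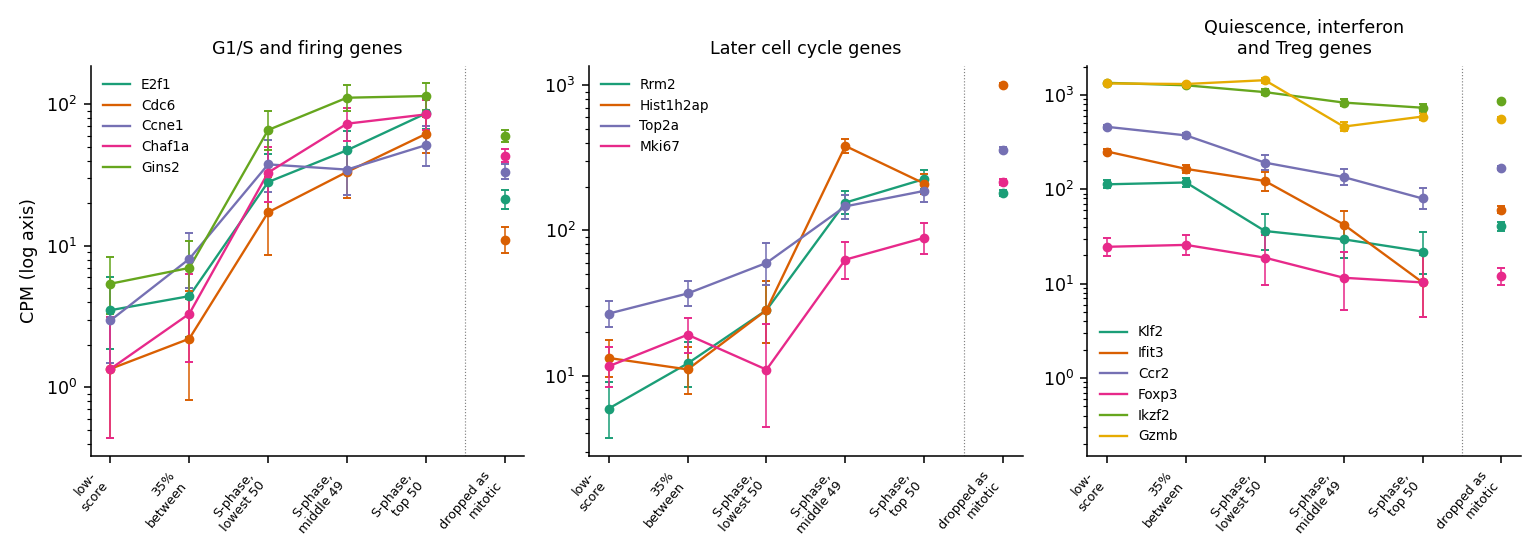
CPM (log axis) with exact Poisson 95% intervals in low-score cells, the cells between, the S-phase cells by score (50, 49 and 50 cells) and, right of the dotted line, the 466 cells dropped as mitotic. Ccne1 stands at 37.7 CPM in the lowest 50 S-phase cells, while Mki67 stands at 10.99 CPM there and at 62.8 CPM in the middle 49, and Ifit3 stands at 123 CPM in the lowest 50 and at 10.3 CPM in the top 50. The middle panel holds the S-phase genes Rrm2 and Hist1h2ap beside Top2a and Mki67.

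Genes of ribosome biogenesis were higher for all 24 measured at a median log2 CPM ratio of 1.63. Mitotic cells were high too: the list summed to 5451 CPM in S-phase, 4664 CPM in mitotic and 2215 CPM in low-score cells. The list also holds genes that are not ribosome assembly factors: the translation factors Eif4a1 and Eif5a and Srm, the spermidine synthase. Srm had 65.7 CPM in S-phase cells and 7.56 CPM in low-score cells, a ratio of 8.68 (5.76 to 13.5). The nucleolar proteins Nop58, Nop16 and Nop56 had ratios of 8.44 (6.35 to 11.4), 7.08 (4.36 to 11.996) and 6.25 (4.90 to 8.05). The chaperonin and heat shock list was higher for 13 of 19 genes, led by the mitochondrial chaperone Hspa9 at 3.84 (3.08 to 4.82) and by Hspd1 at 3.49 (2.99 to 4.08). Of this list 1 gene was lower, the stress-induced Hspa1b at 0.56, named after its value was seen.

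Respiratory chain, proteasome and glycolysis genes had medians nearer to that of all genes. Of 20 nuclear genes of the respiratory chain 7 were higher, at a median log2 CPM ratio of 0.50, with the ATP synthase subunit Atp5g1 at 2.42 (2.18 to 2.68). Of 24 proteasome genes 7 were higher, at the same median of 0.50. Glycolysis had a median of 0.06, with 2 of 16 genes higher and 1 lower. Ldha, lactate dehydrogenase, stood at 2349 CPM in S-phase cells against 1526 CPM in low-score cells (ratio 1.54), the other higher gene was hexokinase Hk2 at 1.57, named after its value was seen, and the glucose transporter Slc2a3 at 21.4 against 55.4 CPM (ratio 0.39). Hypoxia and metallothionein genes were lower for 7 of 12, led by Ankrd37 at a ratio of 0.43 (0.31 to 0.61), and higher for 1, Hmox1 at 1.56, named after its value was seen. In UMIs per cell none of the 12 was lower and 4 were higher, against 2.08% and 69.9% of all 8970 genes. Sterol and fatty acid genes were higher for 5 of 18, with Fasn, fatty acid synthase, at 2.30 (1.44 to 3.72).

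Cell cycle brakes were lower as a share of transcripts for 10 of 15 measured genes and higher for none, at a median log2 CPM ratio of -1.19. Klf2, a factor that keeps T cells quiescent, had 28.7 CPM in S-phase cells and 113 CPM in low-score cells, a ratio of 0.25 (0.19 to 0.33). Cdkn1b, the kinase inhibitor p27, had 23.7 against 61.6 CPM (ratio 0.39, 0.28 to 0.52), and the antiproliferative gene Btg1 442 against 1030 CPM (ratio 0.43, 0.40 to 0.46). Ccng2, a cyclin of arrested cells, had 19.1 against 62.9 CPM, but 65.6 CPM in mitotic cells. Cdkn1a, the inhibitor p21, was less affected at a ratio of 0.76 (0.64 to 0.90). Brakes summed to 916 CPM in S-phase cells, 1173 CPM in mitotic cells and 1912 CPM in low-score cells. In UMIs per cell, the scale added after the data were seen, 3 brakes stayed at least 1.5-fold lower and 2 were higher. Of all 8970 genes, 2.08% were lower and 69.9% higher on that scale. Klf2 was among the lower brakes at 0.42 UMIs per S-phase cell and 0.84 per low-score cell.

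Genes of resting and central T cells were lower for 9 of 13 measured genes, at a median log2 CPM ratio of -1.06. Il7r, the receptor for the survival cytokine IL-7, had 13.7 CPM in S-phase cells and 58.6 CPM in low-score cells, a ratio of 0.23 (0.15 to 0.34). Tcf7, a factor of naive and memory T cells, had 11 UMIs against 70, a ratio of 0.27 (0.13 to 0.50). In UMIs per cell 4 of these genes were at least 1.5-fold lower and 2 higher, against 2.08% and 69.9% of all 8970 genes. Mitotic cells were low as well, with list sums of 1100 CPM in S-phase, 1160 CPM in mitotic and 2170 CPM in low-score cells.

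Interferon-stimulated genes had 16 of 20 members at least 1.5-fold lower, the highest share of lower genes among the lists, none higher, and a median log2 CPM ratio of -0.93. They answer interferon and many act against viruses. Summed over the list, S-phase cells held 11239 CPM, mitotic cells 11236 CPM and low-score cells 17859 CPM, so mitotic cells shared the lower level. Ifit3 had 54.3 CPM in S-phase cells and 251.1 CPM in low-score cells, a ratio of 0.22 (0.18 to 0.26), and ran with the score: 251.1 CPM in low-score cells, 164 in the cells between, then 123, 42.3 and 10.3 CPM in the S-phase cells by rising score. Ifit1 had 85.7 against 279 CPM. With every cell thinned to 3834 UMIs, 13.4% of S-phase cells (8.40 to 19.97) and 38.3% of low-score cells (34.0 to 42.7) held an Ifit3 UMI. With low-score cells weighted to the depths of S-phase cells 10 of the 20 were past 1.5-fold. In UMIs per cell 4 were lower and 1 higher, against 2.08% and 69.9% of all 8970 genes.

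Treg identity genes were lower as a share and not lower per cell. By CPM 6 of 13 measured genes were at least 1.5-fold lower, none higher, at a median log2 ratio of -0.55. In UMIs per cell 5 were higher and none lower, against 69.9% and 2.08% of all 8970 genes. The per-cell median was 0.43, against 0.94 for all genes. The list summed to 6132 CPM in S-phase cells, 5259 CPM in mitotic cells and 8515 CPM in low-score cells. Foxp3 had 13.2 CPM in S-phase cells and 24.6 CPM in low-score cells (29 against 91 UMIs), a ratio of 0.54 (0.34 to 0.83), but 0.195 UMIs per S-phase cell and 0.183 per low-score cell. Ikzf2 had 865 against 1344 CPM, and 12.7 against 10.0 UMIs per cell. Il2ra, the high-affinity IL-2 receptor chain, was the list's highest at a CPM ratio of 1.16 (1.02 to 1.32), and the checkpoint receptor Ctla4 stood at 0.82 (0.77 to 0.87). The number of lower genes by CPM was 2 with low-score cells weighted to equal depths, 3 with the top 25% as members, 3 at the 0.02% mitotic limit and 1 when the deepest 5% of cells were left out. The per-cell scale adds 0.98 to every log2 ratio, so Foxp3, Ikzf2, Icos, Izumo1r and Tnfrsf18 lie above 0 on it, at 0.05 to 0.34, and still below the 0.94 of all genes.

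**Figure D5:**
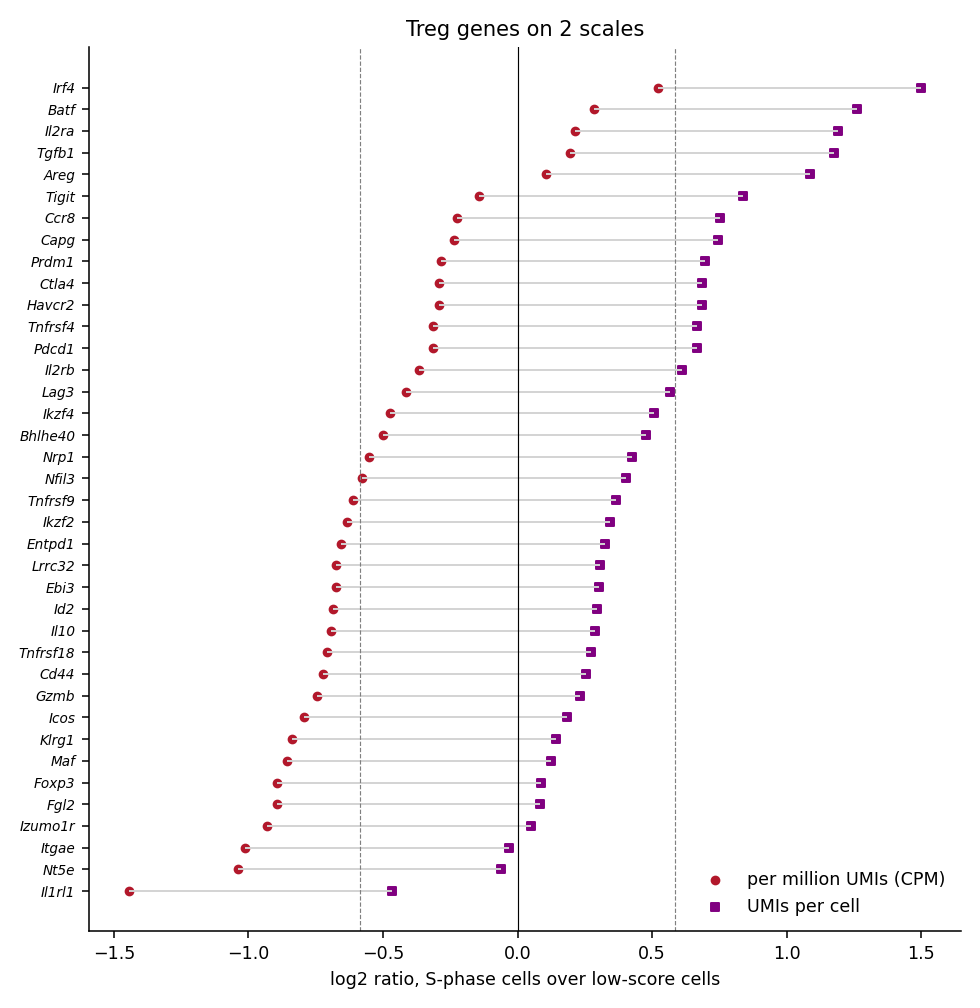
For each measured gene of the Treg identity and the effector lists, the log2 ratio of S-phase over low-score cells is given by CPM (red circles) and in UMIs per cell (purple squares), with dashed lines at 1.5-fold. The squares lie 0.98 to the right of the circles, the log2 ratio of mean UMIs per cell, so that Foxp3 is at -0.89 on the first scale and at 0.09 on the second.

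Effector and suppressive genes behaved in the same way, with 13 of 25 lower by CPM, none higher, and a median log2 ratio of -0.61. In UMIs per cell 9 were higher and none lower, against 69.9% and 2.08% of all 8970 genes. The per-cell median was 0.37, below the 0.94 of all genes. Gzmb, the granule protease, had 789 CPM in S-phase cells and 1323 CPM in low-score cells, a ratio of 0.60 (0.56 to 0.63), and 11.6 against 9.88 UMIs per cell. Its level was uneven by score, at 1432 CPM in the lowest 50 S-phase cells, 462 in the middle 49 and 590 in the top 50. Il10, the inhibitory cytokine that the study's title names, had 48.8 against 78.8 CPM (ratio 0.62, 0.49 to 0.77) and a UMI in 26 S-phase cells (17.4%) and 69 low-score cells (13.9%). Ebi3, a subunit of IL-35, had 66.6 against 106 CPM (ratio 0.63, 0.51 to 0.76) and a UMI in 78 S-phase cells (52.3%) and 214 low-score cells (43.1%). At equal depth, Il10 was found in 6.04% of S-phase cells (2.80 to 11.2) and 10.3% of low-score cells (7.75 to 13.3), and Ebi3 in 24.8% (18.1 to 32.6) and 30.0% (26.0 to 34.3), so the intervals overlap for both. Il10 changed sign when low-score cells were weighted by depth, to a log2 ratio of 0.27. Pdcd1, the receptor PD-1, stood at a CPM ratio of 0.81 (0.71 to 0.91). Over the whole list the sum was 3914 CPM in S-phase cells, 3330 CPM in mitotic cells and 5726 CPM in low-score cells. The count of lower effector genes was 3 without the 5% of cells with most UMIs, and 7 with the top 25% as members or at the 0.02% mitotic limit.

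Chemokine and receptor genes were lower for 9 of 14 and higher for none, at a median log2 CPM ratio of -0.81. Ccr2, a receptor for entry into inflamed tissue, had 132 CPM in S-phase cells and 459 CPM in low-score cells, a ratio of 0.29 (0.25 to 0.33), and 1.94 against 3.43 UMIs per cell, so it was lower on both scales. Ccl5 had 1172 against 2683 CPM, and Cxcr3 156 against 368 CPM. Among IL-2 and common gamma chain genes 8 of 15 were lower by CPM, led by the feedback inhibitor Socs3 at 0.32 (0.22 to 0.46) and by Cish at 0.47 (0.41 to 0.55). Of the antigen-response and early genes 10 of 20 were lower, led by the immediate early factor Egr1, with 8 UMIs against 103 and a CPM ratio of 0.13 (0.06 to 0.27). In UMIs per cell the counts were 2 lower and 2 higher for chemokines and receptors, 1 lower and 5 higher for the IL-2 list, and 1 lower and 5 higher for the antigen-response list. Of all 8970 genes, 2.08% were lower and 69.9% higher on that scale. By summed CPM, mitotic cells stood near S-phase cells for these lists. The S-phase and mitotic sums were 2147 and 2287 CPM for chemokines and receptors, 1699 and 1669 CPM for the IL-2 list, and 3382 and 3392 CPM for the antigen-response list.

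Of the 12 genes that led the lower side by the interval bound nearest to 1, Klf2, Ccr2, Egr1 and Ifit3 have been described and 8 belong to no list. Mmp9, a matrix protease, had 5.47 CPM in S-phase cells and 38.3 CPM in low-score cells, a ratio of 0.14 (0.07 to 0.26). Trf, transferrin, had 7 UMIs against 97, and the chemokine receptor Ccr3 had 4 against 59. Camk2n1, an inhibitor of calmodulin-dependent kinase, had a ratio of 0.17 (0.09 to 0.31) and the interferon family gene Ifit1bl1 one of 0.23 (0.17 to 0.30). The other 3 were Tcp11l2 at 0.15, Cd200r4 at 0.10 and Ypel3 at 0.30. All 8 were lower in UMIs per cell as well, with per-cell ratios from 0.20 to 0.58.

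The lymph node library, which the rule did not use, also held cells past the cut. At the tumour cut, 106 of 2122 non-mitotic lymph node cells (5.00%, 4.11 to 6.01) were at or above it, while the tumour share of 15.04% is fixed by the rule. The lymph node cells at the cut rested on a median of 4 score UMIs, and 88 of them (4.15%, 3.34 to 5.08) had at least 3. With every cell thinned to 1811 UMIs and the mitotic limit applied again, 163 of 770 tumour cells (21.2%, 18.3 to 24.2) and 155 of 1977 lymph node cells (7.84%, 6.69 to 9.11) reached the cut. In cells of 1811 UMIs very few score UMIs reach the cut and very few mitotic UMIs drop a cell. These shares are thus of a differently filtered set and do not estimate the share of S-phase cells. At that depth 5 or more score UMIs were found in 45 of the tumour cells (5.84%, 4.29 to 7.74) and in 12 of the lymph node cells (0.607%, 0.314 to 1.06). At full depth, which differs between the libraries, the cells dropped as mitotic were 466 of 1457 in tumour (32.0%, 29.6 to 34.4) and 89 of 2211 in lymph node (4.03%, 3.24 to 4.93). These intervals cover the counting of cells in 1 library per tissue, and the tissue, the library and whatever the sort gate admitted cannot be told apart. The 2 sets of cells shared 1 barcode, which no S-phase cell carried.

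In the lymph node the 106 cells were compared with the bottom 50% there, 1061 cells. The median depth was 3702.5 UMIs in the cells at the cut and 3958 UMIs in the low-score cells, but the mean was 6860 against 4382 UMIs and the third quartile 9240.75 against 5503 UMIs, so part of the cells at the cut were deeper. The background among 8740 genes was 1777 higher (20.3%), 1354 lower (15.5%) and a median log2 CPM ratio of 0.09. Replication lists were high again: 11 of 15 genes of origin licensing and firing, 23 of 23 of the fork, 24 of 25 of nucleotide synthesis and 17 of 20 of chromatin replication. G2 and mitosis genes outside the rule were higher for 15 of 17. The share was smaller for DNA repair and checkpoint, at 7 of 11. G1/S regulators were higher for 8 of 15 and lower for 1, and histone genes higher for 6 of 14 and lower for 3. Rrm2 had 116 CPM in lymph node cells at the cut and 3.44 CPM in lymph node low-score cells, and Exo1 16.5 against 0.215 CPM. Interferon-stimulated genes were lower for 13 of 19, at a median log2 CPM ratio of -1.06, with Ifit3 at a ratio of 0.18 (0.07 to 0.40). Resting genes were lower for 10 of 16 and brakes for 6 of 12, with Klf2 at 296 against 630 CPM, a ratio of 0.47 (0.41 to 0.54).

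Other lists had other counts than in the tumour. Treg identity had no lower gene among 14 in the lymph node and a median log2 CPM ratio of -0.05, with Foxp3 at a ratio of 1.25 (0.75 to 2.02) and Ikzf2 at 1.15 (1.05 to 1.26). The 1 higher gene was the costimulatory receptor Tnfrsf4 at 1.51, named after its value was seen. Effector and suppressive genes were higher for 9 of 21 and lower for 1, at a median of 0.52, where the tumour had 13 of 25 lower. Pdcd1 had a ratio of 1.89 (1.37 to 2.57) in the lymph node and 0.81 in the tumour. Ribosome biogenesis was higher for 14 of 26 with a median of 0.60, and Myc stood at 28.9 CPM in lymph node cells at the cut against 38.3 CPM in lymph node low-score cells, a ratio of 0.75 (0.46 to 1.19), where the tumour ratio was 3.73. The difference between the tissues was not tested, since each has 1 library.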

How the data were processed

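Cells from 1 tumour and 1 lymph node library were measured. The authors deposited unnormalized UMI counts for every gene and barcode, from Cell Ranger on mm10 per the submitters' processing notes, with version and annotation not given in the sources used here. Barcodes were kept with UMIs at or above 10% of a high total, the 99th percentile among the 3000 largest barcodes, which is 3834 in tumour and 1811 in lymph node, at least 200 genes, at most 10% mitochondrial UMIs, under 20 melanoma and under 3 macrophage marker UMIs. This left 1457 tumour cells of a library of 23618037 UMIs and 2211 lymph node cells of 14000036 UMIs. Counts were summed over the cells of a class and scaled to CPM. Ratios carry exact conditional-binomial, sums exact Poisson and shares Clopper-Pearson 95% intervals, for counting error only. Cells of 1 library are not replicates, so no test was made. No doublet caller was run.

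The cells, gene lists and markers were chosen with earlier results of these data known. Named were all score genes, up to 4 genes of each of 27 lists by the interval bound nearest to 1, the 12 genes outside the score that lead each way by that bound, list genes included, and 12 Treg and cycle genes whatever their values; some of these are not reported here. Alternatives were other cuts, scores, filters, weights and depths and TMM scaling by edgeR 4.0.16 in R 4.3.3. Python 3.11.15, numpy 2.4.6, scipy 1.17.1 and pandas 2.3.3 were used. The ratio and interval steps were tested on simulated data. Promoters are from RefSeq, matched by symbol.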

Additional observations from a re-analysis of the deposited data

Results flagged for a closer look

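For 5 genes the tumour and the lymph node ratios lay on opposite sides of 1, and this difference was not tested because each tissue has 1 library. Gzmb was 0.60 times the low-score level in tumour S-phase cells and 5.84 times (3.07 to 11.03) in lymph node cells at the cut, where it had 28.9 CPM against 4.95 CPM. Egr1 had a tumour ratio of 0.13 and a lymph node ratio of 2.37 (1.34 to 4.02). Fgl2, a secreted fibrinogen-like protein of Treg cells, had 0.54 and 2.13 (1.10 to 3.895). The chemokine receptors Ccr2 and Cxcr3 had tumour ratios of 0.29 and 0.42 and lymph node ratios of 1.84 (1.01 to 3.20) and 1.53 (1.06 to 2.15).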

How the results depend on the processing

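Of 131 named genes, the log2 ratio left its interval for 102 in UMIs per cell, 56 against the 35% of cells between, 55 under depth weighting, 54 at the 0.02% mitotic limit, 47 without the deepest 5% of cells and 33 after thinning, with at most 32 under the others, and the causes were not tested. Of all genes 1360 were higher and 1342 lower. Thinning to equal depth left 780 higher, and the counts were 850 and 865 at the 0.02% mitotic limit, 3347 and 3765 with at least 1 UMI, and 5028 and 80 in UMIs per cell, a scale chosen after seeing the data. After thinning, higher genes numbered 11 for licensing, 6 for repair and 10 for G1/S regulators, with the UMI minimum applied to the thinned counts. How many genes met that minimum was not counted. With at least 100 UMIs the numbers were 8, 3 and 7, since fewer genes were measured. G2 and mitosis genes numbered 16 at the 0.02% limit and 12 with at least 100 UMIs. Lower Treg identity genes, 6, numbered 2 under depth weighting, 3 with the top 25%, 3 at the 0.02% limit, 1 without the deepest 5% of cells and 0 in UMIs per cell, and lower effector genes, 13, numbered 7 with the top 25%, 7 at the 0.02% limit, 3 without the deepest 5% and 0 per cell. Lower brakes numbered 3 per cell, lower resting genes 4 per cell and 5 with at least 100 UMIs, and lower interferon genes 10 under depth weighting and 4 per cell. The share at the cut was 21.2% in tumour and 7.84% in lymph node after thinning, and 25.6% and 6.33% with mitotic cells kept. Signs reversed for Ccnb2 at the 0.02% limit (-0.42) and Il10 under depth weighting (0.27), and in UMIs per cell, which adds 0.98 to every log2 ratio and so turns any gene that lies less than 0.98 below 0, for 18 named genes, with log2 ratios of 0.050 for Izumo1r, 0.18 Icos, 0.27 Tnfrsf18, 0.34 Ikzf2, 0.085 Foxp3, 0.084 Fgl2, 0.12 Maf, 0.23 Gzmb, 0.29 Il10, 0.30 Ebi3, 0.14 Il2rg, 0.16 Pim1, 0.32 Mcl1, 0.022 Hilpda, 0.042 Ddit4, 0.12 Bnip3, 0.30 H2-K1 and 0.34 H2-D1. TMM scaling moved no named gene by more than its interval. Depth weighting rests on 4 low-score cells in the deepest 20% of S-phase depths. No paired analysis was possible because each tissue has 1 library and no result comes from a test.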

Other observations

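MHC class I and peptide loading genes stood at a median log2 CPM ratio of -0.31 in S-phase cells over low-score cells, with 2 of 12 at least 1.5-fold lower and 1 higher. H2-K1 and H2-D1, the classical class I heavy chains, had 2538 CPM in S-phase cells against 4077 CPM in low-score cells and 3346 against 5212 CPM. Calr, a chaperone of their folding, was the higher gene at 762 against 460 CPM. Members of the BCL2 family, which control cell death, had a median of -0.16 with 3 of 12 lower and none higher: the survival factor Mcl1 at a ratio of 0.64 (0.54 to 0.75), and the death-promoting genes Bcl2l11 at 0.60 and Bbc3 at 0.63, both named after their values were seen. Per cell, 7 of the 12 MHC genes and 8 of the 12 BCL2 genes were at least 1.5-fold higher, against 69.9% of all 8970 genes, so these counts lie no higher than the background. By CPM 20.3% of all genes were lower and 20.6% higher, and the lower counts of both lists lie near that share.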
